A study of Mus musculus with 30 samples.

Results

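Interleukin-6 (IL-6) family cytokines and the STAT3 axis were followed through colitis in the mouse colon, as 10 genes of the 46078 in the count table. The genes were taken by name: the ligands Il6, Il11, Osm and Lif, the receptor subunits Il6ra, Il6st, Osmr and Il22ra1, the transcription factor Stat3 and the feedback inhibitor Socs3. RNA came from scrapes of the colon epithelial layer of wild-type C57BL/6J mice that were 5 to 10 weeks old at the start. There were 30 libraries, 5 for each sex in each of 3 conditions. Vehicle-treated mice received 0.9% NaCl i.p. and were sacrificed at 9 weeks. The 9-week and 15-week AOM/DSS mice received 10 mg/kg of azoxymethane (AOM, a carcinogen) and then dextran sodium sulfate (DSS, an irritant of the gut lining) at 2.5% in the drinking water in 3 cycles. All groups shared the strain and carried no transgene. By the authors' account the 9-week time came soon after the third DSS cycle. The 15-week mice were therefore further past DSS, not exposed to more of it. Both AOM/DSS times were set against the same vehicle libraries and no 15-week vehicle group was analysed here, and the 15-week change cannot be told apart from one of age.

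IL-6 family cytokines signal through receptor complexes that share gp130, the protein encoded by Il6st. IL-6 and IL-11 reach gp130 through their own alpha subunits, whereas oncostatin M and LIF bring gp130 together with OSMR or LIFR. Janus kinases bound to these receptors then phosphorylate STAT3, which induces target genes, among them Socs3, whose product shuts the receptor down. The IL-22 receptor, built from Il22ra1 and Il10rb, uses STAT3 too and is known for epithelial defence and repair in the gut.

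The total on genes ran from 9265804 to 30806392 counts per library, with a median of 24697064. The 10 epithelial markers summed to between 13640 and 46105 CPM (counts scaled to library size), led by the mucin gene Muc2, and none was at 0 in all libraries of a group. Male vehicle replicate 1 stood apart with 5735 CPM over 8 smooth muscle genes, against at most 276 CPM in the other 29 libraries, and with 1388 CPM over 10 mesenchymal genes. It was the highest vehicle library for Il6ra, Il6st, Il22ra1, Osmr and Stat3. Female 9-week replicate 5 had the lowest level of 8 of the 10 genes among the 10 libraries at 9 weeks, tied at 0 for Il6 with male replicate 4. Results are therefore also given without this pair of libraries. Female replicate 5 was picked by its low levels of these genes, so leaving it out favours larger 9-week changes. Calls gained that way are no independent evidence of a change. In bulk tissue, fewer cells of a type and less RNA per cell cannot be told apart.

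The genes lie on 7 chromosomes of GRCm38, and all 10 are protein-coding. Osm (chr11:4236420-4241026) and Lif (chr11:4257557-4272514), both on the plus strand, are neighbours 16531 bases apart. Stat3 (chr11:100885098-100939540, minus strand) overlaps Stat5a on the opposite strand, and Il6ra (chr3:89864059-89913196, minus strand) overlaps the antisense gene Gm42809. The libraries were strand-specific, but the strand setting of the counting is not given in the sources used here, so these counts may hold reads of the partner genes.

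Promoters were read for the 9 genes with an entry in the RefSeq promoter set (GRCm38.p6), in the 250 bases before the start and on both strands. The STAT motif TTCNNNGAA was found in Socs3 and in at least 1 promoter of 8.13% of all genes with an entry. An NF-kB motif was found in Il6 and in 0.414% of all genes with an entry, counted in the same way. Both stretches are shown because Socs3 and Il6 were among the genes that rose at 9 weeks, and the capitals mark the motif. The Socs3 stretch is chr11:117969467-117969566 on the minus strand, with the motif at 117969512 to 117969520. The Il6 stretch is chr5:30013014-30013113 on the plus strand, with the motif at 30013070 to 30013079. Neither stretch overlaps an annotated exon of its own gene. The Socs3 stretch lies before the RefSeq start but within the annotated span of Socs3 (chr11:117966079-117970047, minus strand). A match describes these letters and is not evidence of binding.
Socs3: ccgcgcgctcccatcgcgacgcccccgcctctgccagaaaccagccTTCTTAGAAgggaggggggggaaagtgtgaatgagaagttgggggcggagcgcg
Il6: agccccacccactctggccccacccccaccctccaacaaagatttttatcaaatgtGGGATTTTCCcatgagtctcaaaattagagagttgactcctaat

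Levels between genes were compared in TPM, transcript levels scaled for gene length and library size. In vehicle libraries Stat3 led with a mean of 19.2 TPM ± 7.74 (SD, n = 10), followed by Il22ra1 at 11.6 TPM ± 6.28. The shared subunit Il6st stood at 3.35 TPM ± 1.90 and Socs3 at 2.16 TPM ± 0.872. Lif was at 0.607 TPM ± 0.244, Il6ra at 0.407 TPM ± 0.447 and Osmr at 0.174 TPM ± 0.218. Each of these means differed from the next in the order by less than the sum of their SDs except Il22ra1 and Il6st, and Socs3 and Lif, so the order of close neighbours was not resolved. Il6 was listed at 0 TPM in 22 of 30 libraries and Osm in 17, 11 of which held Osm counts, so these ligands were described by counts. At 9 weeks the order changed for Socs3, at 11.5 TPM ± 5.18, which was close to Il22ra1 at 12.0 TPM ± 3.92, and Osmr, at 1.55 TPM ± 0.782, which stood beside Lif at 1.47 TPM ± 0.616.

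After 9 weeks of AOM/DSS, 6 of the 10 genes were higher than in vehicle and none was lower, when the female and male changes were averaged. These were the ligands Il6, Osm and Lif, the receptor Osmr, the transcription factor Stat3 and the inhibitor Socs3. A call required an adjusted p under 0.05 (edgeR quasi-likelihood test, Benjamini-Hochberg over 16261 genes) and a log2 fold change beyond 0.4, which 12.0% of all genes met in this comparison, 8.05% as higher and 3.97% as lower. The median log2 fold change of the 10 genes was 0.92, against -0.02 over all genes tested. The genes were chosen with earlier results of these data known, so their share and median are not independent of that choice. Leaving out the pair of libraries that stood apart gave the same count of 6, while a minimum of 1 FPKM, which Il6 and Osm do not reach, left 4.

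**Figure D1:**
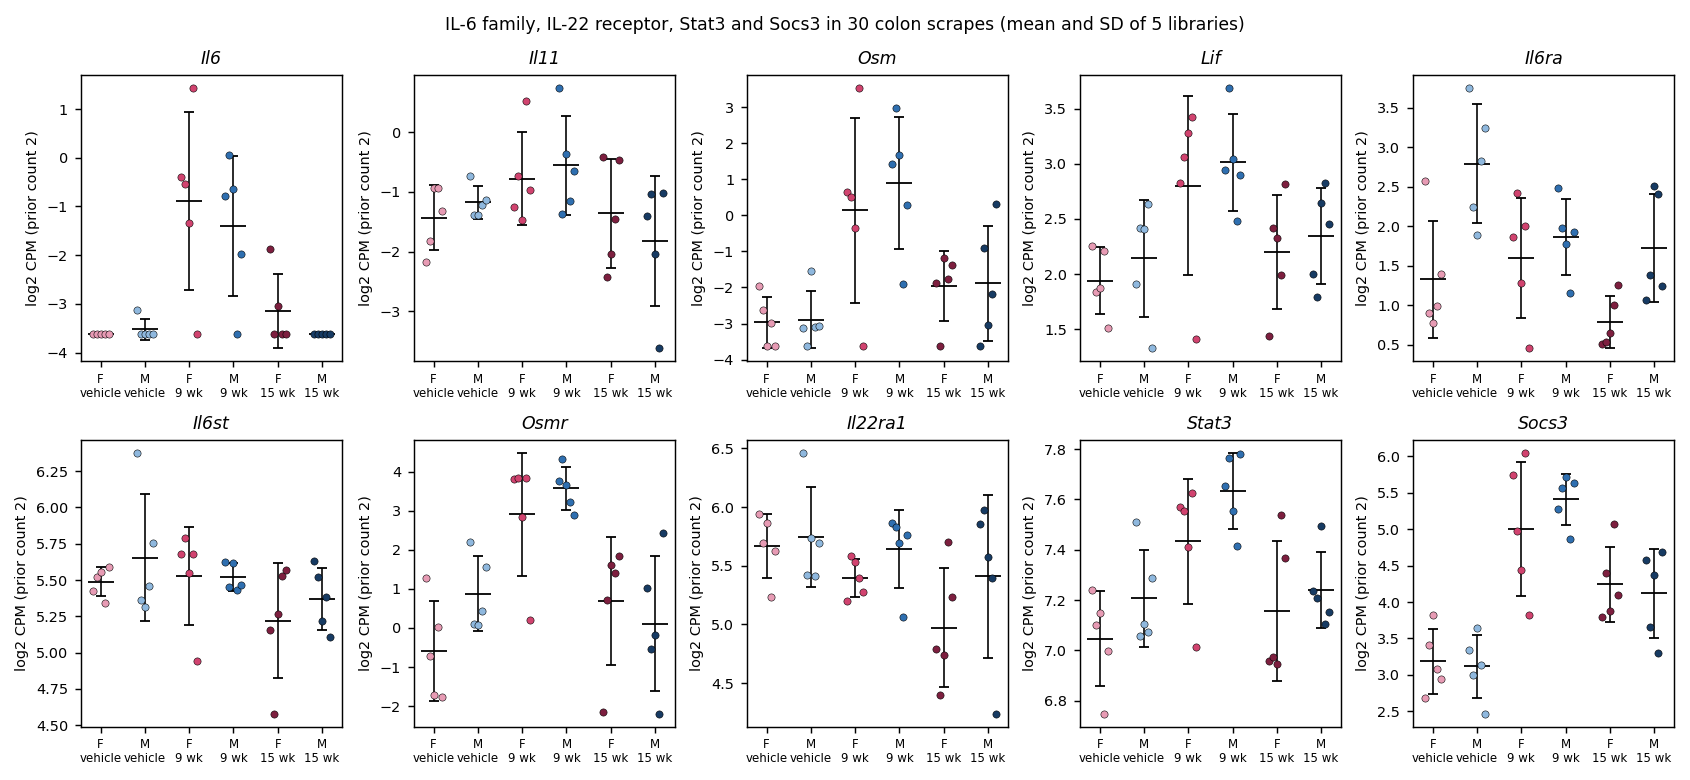
Level of each of the 10 genes (y axis, log2 CPM with a prior count of 2, a separate scale per panel) in the 6 groups (x axis, F female, M male), with 1 point per library and the mean and SD of 5 libraries. Male Osmr and Socs3 at 9 weeks lie wholly above the vehicle males, and female replicate 5, the last point in the female 9-week column, lies near the vehicle level for most genes.

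Il6, the founding member of the family, was almost silent without AOM/DSS. The 5 female vehicle libraries held 0 counts each, and the males held 1, 0, 0, 0 and 0. At 9 weeks the female libraries held 16, 14, 9, 62 and 0 counts and the males 14, 22, 16, 0 and 5. Thus 8 of the 10 libraries rose above every vehicle library, and 1 library of each sex remained at 0. Against a floor of 3 counts per library, Il6 was at least 5.65-fold higher in females. In males the ratio of the pooled counts was 54.5, with a 95% counting interval of 9.40 to 2190. These measures are unlike and do not rank the sexes. For the pooled counts the lower 95% counting limit was 26.8 in females and 9.40 in males. Intervals and floors cover counting error only. The adjusted p from edgeR was 4.52e-04 for the mean of both sexes, 0.0126 in females and 0.0259 in males. The male call was lost when male vehicle replicate 1 (adjusted p = 0.0598), 3 (0.0570) or 5 (0.0585) or male 9-week replicate 2 (0.0636) or 3 (0.0502) was left out. The female call was lost in a fit of the compared groups alone (edgeR adjusted p = 0.0887).

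Osm encodes oncostatin M, a ligand made mainly by myeloid and T cells. Vehicle females held 5, 2, 0, 1 and 0 counts and vehicle males 1, 0, 7, 1 and 1. At 9 weeks the females held 35, 31, 20, 272 and 0 counts and the males 73, 179, 89, 6 and 33. Female replicate 4 was far above the others, and female replicate 5 and male replicate 4 stayed within the vehicle range. The fitted log2 fold change was 5.30 ± 0.89 (SE; edgeR adjusted p = 1.25e-04), with 5.36 in females (0.0133) and 5.24 in males (0.0074). Without female 9-week replicate 4 it was 4.42 for the mean of both sexes and 3.60 in females, where the call was lost (edgeR adjusted p = 0.115). The female call was also lost in a fit of the compared groups alone (0.0667). Without male vehicle replicate 3, the highest male vehicle library, the mean of both sexes was 5.94.

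Lif, which holds stem cells in an undifferentiated state in culture and signals through gp130 and LIFR, was already present in vehicle colon. It ran from 2.77 to 4.68 CPM in vehicle females and from 2.43 to 6.15 CPM in vehicle males. At 9 weeks it was 7.02, 8.27, 9.66, 10.7 and 2.58 CPM in females and 7.62, 12.8, 8.16, 5.50 and 7.40 CPM in males. All but female replicate 5 and male replicate 4 exceeded every vehicle library. The log2 fold change was 0.93 ± 0.22 (SE; edgeR adjusted p = 0.00411), while neither sex alone passed, at 0.99 in females (0.0708) and 0.87 in males (0.0752). Without female 9-week replicate 5 both sexes were called, at 1.20 (0.00781) and 0.86 (0.0359). That library was the lowest for Lif at 9 weeks, so its removal favours such calls. DESeq2 called Lif with all libraries in females (adjusted p = 0.0289) and in males (0.0406).

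Il11, a ligand linked to stromal cells and wound repair, was low throughout. It held 3 to 16 counts in the vehicle libraries and 7 to 45 at 9 weeks, with overlapping ranges in both sexes. Its log2 fold change of 0.92 ± 0.41 (SE) did not pass (edgeR adjusted p = 0.127).

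Osmr, the signalling subunit that pairs with gp130 to bind oncostatin M, was the only one of the 4 receptor genes to pass the test. Female vehicle libraries had 2.32, 0.527, 0.222, 0.928 and 0.213 CPM and the males 4.55, 0.985, 0.973, 1.28 and 2.88 CPM. At 9 weeks the females had 14.04, 14.2, 7.13, 14.3 and 1.08 CPM and the males 13.5, 20.0, 12.6, 9.21 and 7.36 CPM. The male groups did not overlap, as for 5.55% of all genes in the same direction (2.71% in females and 0.935% with both sexes pooled, where none of the 10 genes was free of overlap), while female replicate 5 lay within the vehicle range. The log2 fold change was 3.03 ± 0.55 (SE; edgeR adjusted p = 2.77e-04), with 3.51 in females (0.0101) and 2.55 in males (0.0298). The male call was lost without male vehicle replicate 2 (0.0624), 3 (0.0715) or 4 (0.0545) or male 9-week replicate 1 (0.0506), 2 (0.0731) or 3 (0.0524).

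The remaining receptor subunits were not called at 9 weeks. Il6st had a log2 fold change of -0.06 (95% CI -0.31 to 0.19, edgeR adjusted p = 0.803), and its vehicle and 9-week means were 48.6 CPM ± 12.8 and 46.5 CPM ± 6.78 (SD, n = 10). This value turned to 0.05 without male vehicle replicate 1. Il22ra1, which confers IL-22 sensitivity on epithelial cells, had -0.21 (95% CI -0.56 to 0.14, edgeR adjusted p = 0.473), or -0.10 without male vehicle replicate 1. Il6ra, the IL-6-binding alpha subunit, had -0.40 (95% CI -0.95 to 0.16, edgeR adjusted p = 0.380), or -0.14 without female vehicle replicate 1. This mean joins -1.04 in males (95% CI -1.83 to -0.25, edgeR adjusted p = 0.0965) and 0.25 in females (95% CI -0.55 to 1.04, 0.829), whose difference did not pass (0.645). The intervals of the means still allow modest changes in either direction.

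Stat3 itself moved little. It was 151, 137, 141.9, 108 and 128 CPM in vehicle females and 182, 133.1, 138, 135 and 156 CPM in vehicle males. At 9 weeks it was 190, 188, 170, 197 and 129 CPM in females and 201, 217, 188, 171 and 220 CPM in males. The groups overlapped through female replicate 5, male replicate 4 and the high male vehicle replicate 1. The log2 fold change was 0.41 ± 0.09 (SE; edgeR adjusted p = 0.00260), just past the fold limit of 0.4. It fell under this limit, to between 0.37 and 0.39, in 9 of 30 fits that each left out 1 library, though the adjusted p stayed at or below 0.00695 in all 30. Those libraries were female vehicle replicate 4, male vehicle replicates 2, 3 and 4, female 9-week replicates 1, 2 and 4 and male 9-week replicates 2 and 5. The male change of 0.42 was called (edgeR adjusted p = 0.0369) and the female change of 0.39 was not (0.0882). The male call was lost in 8 fits without a male vehicle (replicates 2 to 5) or male 9-week (replicates 1, 2, 3 and 5) library, with adjusted p from 0.0544 to 0.0895. The female change was called without female 9-week replicate 5 (0.47, 0.0164), the lowest library for Stat3 at 9 weeks, whose removal favours a call.

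Socs3, the feedback inhibitor of gp130 receptors, rose in both sexes. Vehicle libraries had 6.30, 10.6, 14.1, 8.35 and 7.57 CPM in females and 10.1, 7.88, 12.4, 8.70 and 5.45 CPM in males. At 9 weeks they had 53.6, 31.3, 21.7, 66.1 and 14.03 CPM in females and 38.9, 47.1, 52.5, 28.99 and 49.4 CPM in males. The male groups did not overlap, and the female groups met at replicate 5. The log2 fold change was 2.14 ± 0.25 (SE; edgeR adjusted p = 8.03e-07), with 1.99 in females (0.00116) and 2.28 in males (1.11e-04). It was called in all 30 fits that left out 1 library, in both sexes together and in each.

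Counted within each sex at 9 weeks, Il6, Osm, Osmr and Socs3 were called in females, where 4.05% of all genes were called and 3.48% were higher. Those and Stat3 were called in males, where 9.03% were called and 5.26% were higher. The test of a difference between the male and female changes called 0 of the 10 genes and 0 genes in all. Il6ra alone had an unadjusted p under 0.05 in that test, as 7.41% of all genes did, and DESeq2 also called 0 of the 10.

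**Figure D2:**
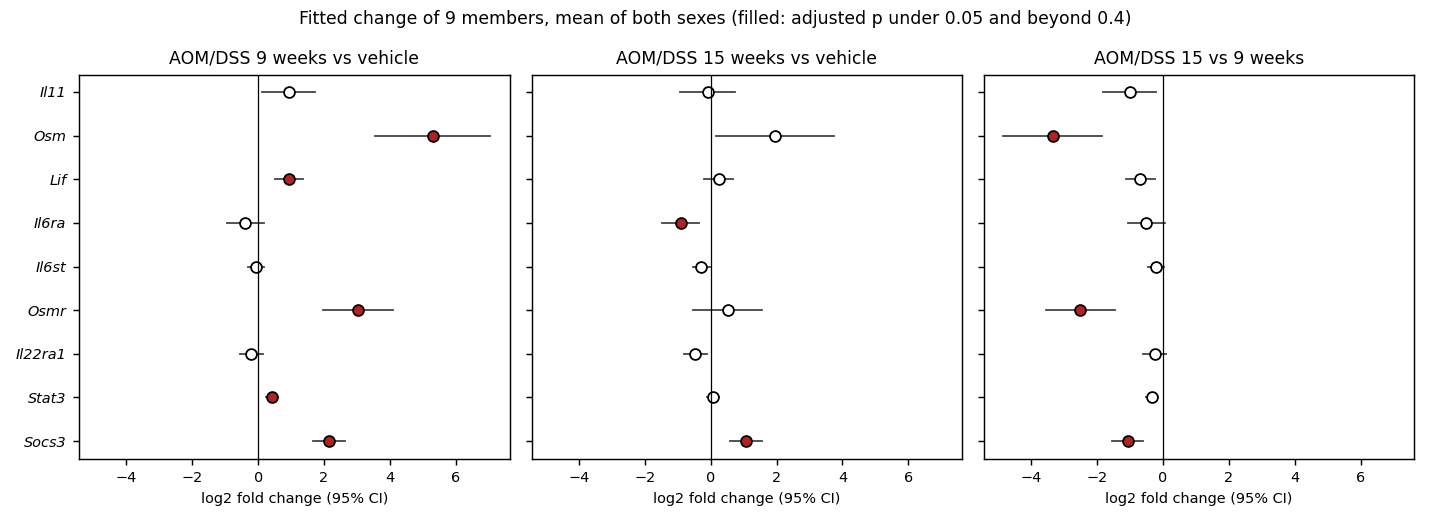
Fitted log2 fold change (x axis, with its 95% CI) of 9 genes (y axis) in 3 comparisons, averaged over the sexes. Il6 is left out because its fold against libraries at 0 has no finite estimate, and filled points are those called. Osm, Osmr and Socs3 lie to the right of 0 at 9 weeks and to the left of 0 from 9 to 15 weeks.

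At 15 weeks only Socs3 was called higher than vehicle, and only Il6ra was called lower. This made 2 of 10 genes called, in a comparison where 11.3% of all genes were called, 4.29% as higher and 7.02% as lower. Socs3 was 13.8, 21.0, 14.6, 33.5 and 17.0 CPM in females and 23.7, 12.5, 20.7, 9.78 and 25.7 CPM in males. The male groups overlapped through replicate 4, and female replicate 1 lay just under the highest vehicle female. The log2 fold change was 1.07 ± 0.24 (SE; edgeR adjusted p = 0.00532), and it was called in all 30 fits that left out 1 library. In males alone it was 1.06 (0.0393), in a comparison where 12.5% of all genes were called and 4.82% were higher, and in females 1.09 (0.265), where 0.117% were. The male call was lost without male vehicle replicate 1, 2, 4 or 5 or male 15-week replicate 1, 3 or 5, with adjusted p from 0.0516 to 0.104, with a block on replicate number (0.0523) and in a fit of the compared groups alone (0.0829). No gene of the 10 was called in females by edgeR or DESeq2, and Il22ra1 and Socs3 had an unadjusted p under 0.05, as 10.9% of all genes did. Of the neutrophil markers S100a8 and S100a9 and of the macrophage markers Cd14 were called higher at 15 weeks, and their part in the Socs3 result was not tested.

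Il6ra was 5.88, 1.78, 1.63, 1.90 and 2.56 CPM in vehicle females and 13.4, 4.67, 3.63, 7.01 and 9.41 CPM in vehicle males. At 15 weeks its range was 1.34 to 2.31 CPM in females and 2.02 to 5.60 CPM in males. Replicate 1 was the highest vehicle library in both sexes, and the groups overlapped. The log2 fold change was -0.91 ± 0.29 (SE; edgeR adjusted p = 0.0308). The call was lost without female vehicle replicate 1 (-0.66, 0.0983), male vehicle replicate 1 (-0.76, 0.0770) or 5 (0.0538), female 15-week replicate 1 (0.0517) or 2 (0.0561) or male 15-week replicate 1 (0.0593) or 5 (0.0619). It was also lost without the pair of libraries that stood apart (-0.75, edgeR adjusted p = 0.0587), with a block on replicate number (-0.78, 0.0799) and in a fit of the compared groups alone (0.0526). Smooth muscle markers moved in the same direction, with 7 of 8 called lower at 15 weeks, and endothelial markers, with 4 of 6, and mesenchymal markers, with 3 of 10. The smooth muscle sum ran from 58.6 to 5735 CPM in vehicle and from 39.4 to 131 CPM at 15 weeks. Male vehicle replicate 1 alone set the top, and the next vehicle library, male replicate 5, was at 165 CPM. The part of these cell types in the Il6ra result was not tested.

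The other receptor genes and the ligands were not called at 15 weeks. Il6 had 4, 0, 1, 0 and 0 counts in females and 0 in each male library, at or under the floor in all but 1 library, so no fold against vehicle was given. Osm had 4, 0, 9, 6 and 8 counts in females and 0, 11, 1, 2 and 34 in males, and its log2 fold change of 1.95 ± 0.91 (SE) did not pass (edgeR adjusted p = 0.131). Osmr stood at 0.52 ± 0.53 (0.510), with male replicate 5 alone at 5.27 CPM and the other 9 libraries between 0.138 and 3.49 CPM. Its change was 0.012 without that library and 0.94 without female vehicle replicate 1. Stat3 stood at 0.08 (95% CI -0.10 to 0.26, edgeR adjusted p = 0.585), Lif at 0.24 (0.451), Il11 at -0.09 (0.898) and Il6st at -0.28 (0.122). Il22ra1 stood at -0.46 (95% CI -0.81 to -0.11, edgeR adjusted p = 0.0685), and was called without male vehicle replicate 4 (0.0498), female 15-week replicate 4 (0.0296) or male 15-week replicate 2 (0.0434).

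Between 9 and 15 weeks Il6, Osm, Osmr and Socs3 fell, 4 of 10 genes in a comparison where 4.32% of all genes were called, 3.83% as lower and 0.492% as higher. Against the floor of 3 counts, Il6 was at least 3.24-fold lower in males, whose 57 counts at 9 weeks stood against 0. By the pooled counts, an unlike measure, it was 22.0-fold lower in females (95% counting interval 9.11 to 69.1). The lower 95% counting limit for Il6 in males was 12.7. The edgeR adjusted p was 0.0134 for the mean of both sexes, 0.299 in females and 0.156 in males. Osm fell by 3.35 ± 0.76 on the log2 scale (SE; edgeR adjusted p = 0.0175), Osmr fell by 2.51 ± 0.53 (0.0135) and Socs3 fell by 1.07 ± 0.24 (0.0172). In males the 15-week libraries lay wholly below the 9-week ones for Osmr, at most 5.27 against at least 7.36 CPM, and for Socs3, at most 25.7 against at least 28.99 CPM, as for 1.99% of all genes. Without female 9-week replicate 4 the call was lost for Osm (-2.47, 0.0656) and for Socs3 (-0.91, 0.05003). Without the pair of libraries that stood apart 5 genes were called, the same 4 and Lif (-0.78, 0.00844). With all libraries Lif was at -0.69 (edgeR adjusted p = 0.0648), and it was called also without female 9-week replicate 5 (0.0107), male 9-week replicate 4 (0.0480) or female 15-week replicate 5 (0.0398). Stat3 had an adjusted p of 0.0394 but a log2 fold change of -0.33, short of the fold limit. Il11 at -1.01 (edgeR adjusted p = 0.131), Il6ra at -0.51 (0.275), Il6st at -0.22 (0.295) and Il22ra1 at -0.25 (0.389) did not pass. Within each sex 0 of the 10 genes and 0% of all genes were called by edgeR. In each sex 7 of the 10 had an unadjusted p under 0.05, against 12.6% of all genes in females and 13.4% in males, and DESeq2 called 0 in females and 2 in males, Osmr and Socs3.

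No sex difference in level was called for the 10 genes by edgeR in vehicle, at 9 weeks or at 15 weeks, where 0.252%, 0.0492% and 0.221% of all genes were called. The lowest p was that of Il6ra in vehicle, at a log2 male-to-female difference of 1.47 ± 0.41 (SE; edgeR adjusted p = 0.0699). DESeq2 called it (0.0172), as did edgeR without female vehicle replicate 1 (1.97, 0.00619), male vehicle replicate 3 (0.0343) or male vehicle replicate 4 (0.0475). It was 1.16 without the pair that stood apart (0.343). Il6ra had an unadjusted p under 0.05 in vehicle and at 15 weeks, as 18.7% and 12.4% of all genes did, and no gene of the 10 did at 9 weeks, where 3.87% did. The changes from vehicle to 15 weeks and from 9 to 15 weeks did not pass the test of a difference between the sexes for any of the 10 genes by edgeR or DESeq2, where 0.00615% and 0% of all genes were called, and none had an unadjusted p under 0.05, as 7.66% and 2.23% of all genes did.

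Markers of immune cells stood beside these results. At 9 weeks 5 of the 6 neutrophil markers tested were called higher: S100a8, S100a9, Cxcr2, Csf3r and Retnlg. Ly6g was not (log2 fold change 0.24 ± 0.43 SE), and it made up 99.3% of the summed neutrophil list in vehicle, so the list is also given without it. Those 7 genes summed to 0 to 3.38 CPM in vehicle, 0.430 to 111 CPM at 9 weeks and 0.534 to 15.8 CPM at 15 weeks. S100a8, Cxcr2, Camp and Ngp were at 0 in all vehicle females, and Ngp also in all vehicle males. The highest value, 111 CPM, and the lowest at 9 weeks, 0.430 CPM, belonged to female replicates 4 and 5, which were also the highest and lowest in Osm and Socs3. Of the macrophage markers 5 of 10 were called higher, with sums of 37.5 to 230 CPM in vehicle, 84.9 to 306 CPM at 9 weeks and 55.4 to 210 CPM at 15 weeks. T-cell markers were called higher in 7 of 8 cases and B and plasma cell markers in 3 of 6. None of the mesenchymal, smooth muscle or endothelial ones was called higher. Even so, the median mesenchymal sum in females was 42.1 CPM in vehicle and 239 CPM at 9 weeks. In males it was 192 and 238 CPM. The median log2 fold change of the 10 mesenchymal markers was 1.54 in females and -0.68 in males, whose vehicle replicate 1 stood at 1388 CPM. No fit of these markers without that library is given, so the lack of calls does not show an unchanged level. From 9 to 15 weeks 5 of the 6 neutrophil markers tested were called lower, against 3.83% of all genes. So were 3 of 10 macrophage, 3 of 10 mesenchymal, 5 of 6 endothelial and 2 of 8 T-cell markers. Of the 6 B and plasma cell markers 1 was called lower, a plasma cell marker. The part of these cell types in the changes of the 10 genes was not tested.

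**Figure D3:**
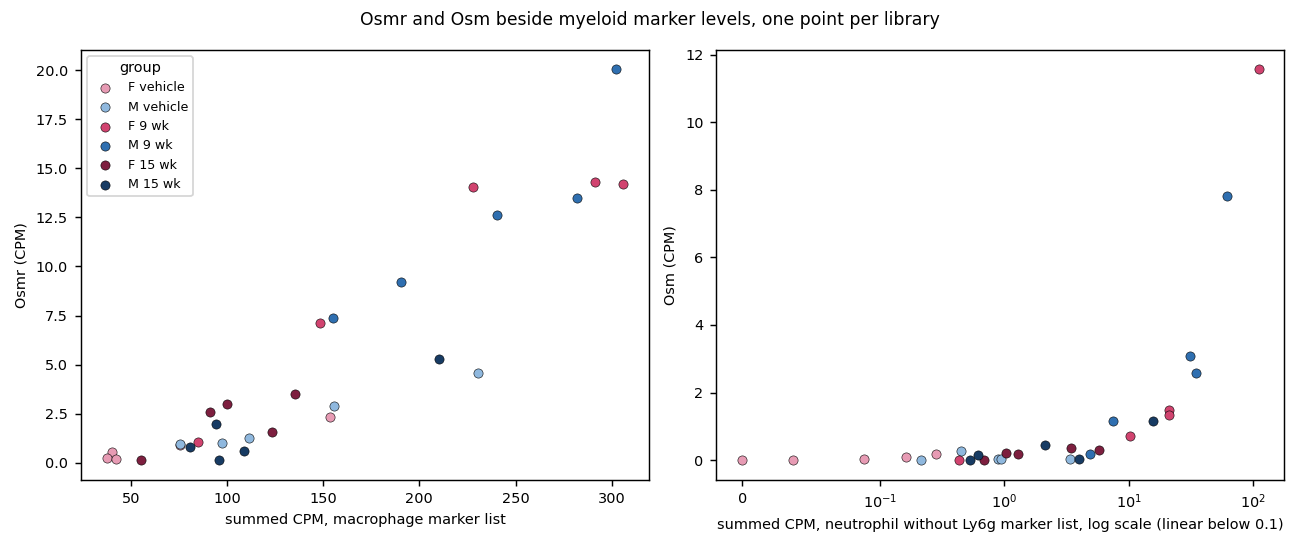
Osmr (left, CPM) against the summed CPM of 10 macrophage markers, and Osm (right, CPM) against the summed CPM of 7 neutrophil markers on a log axis that is linear below 0.1, with 1 point per library coloured by group. The 9-week libraries span both axes, from female replicate 5 at 84.9 CPM of macrophage markers and 1.08 CPM of Osmr to male replicate 2 at 302 CPM and 20.0 CPM. Male vehicle replicate 1 had 230 CPM of macrophage markers with 4.55 CPM of Osmr.

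Genes that varied with each of the 10 within groups were ranked by Spearman correlation of deviations from the group means of log2 CPM, over all 30 libraries. These libraries share tissue, depth range and cell makeup, so the values are a description. Osmr was closest to C1qb (0.89), Csf1r (0.89) and Sod3 (0.88), of which C1qb and Csf1r are on the macrophage list. Osm was closest to Cxcl1 (0.80), a neutrophil-attracting chemokine, Csf3r (0.78), the G-CSF receptor on the neutrophil list, and Igsf6 (0.77). Il6 was closest to Il1f9 (0.80), S100a9 (0.70) and Arg1 (0.69). As Il6 held 0 counts in 9 of 10 vehicle and 8 of 10 15-week libraries, these values rest mainly on the 9-week ones. Socs3 lay nearest to Sulf2 (0.76), Tgm2 (0.75) and Znfx1 (0.73), and Lif to Cd177 (0.79), Slc27a2 (0.78) and Dnah5 (0.77). The nearest to Stat3 were Net1 (0.84), Rbfox2 (0.83) and Smpd3 (0.82), and to Il22ra1 Dyrk2 (0.92), Etv3 (0.90) and Mef2d (0.86). Il6ra was nearest to Tagap (0.85), Cpq (0.85) and Hspa12a (0.85), Il6st to Notch2 (0.76), Stx2 (0.76) and Spin1 (0.76), and Il11 to Slc39a6 (0.71), Tspan9 (0.64) and Cyr61 (0.63).

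Around the 10 genes, a list of 51 further genes of the IL-6, IL-22 and STAT3 pathways had 46 members with enough counts to be tested. At 9 weeks 14 of the 46 were called higher and 3 lower, against 8.05% and 3.97% of all genes, with a median log2 fold change of 0.40 against -0.02 over all genes. This list too was chosen with earlier results of these data known, so its share and median are not independent of that choice. Among ligands Clcf1 rose by 0.99 ± 0.32 (SE), while Il22 and Il10 were too low to test, with 48 and 35 counts in all 10 libraries at 9 weeks and 13 and 14 in vehicle. Among receptors Il10ra rose by 1.75 ± 0.40 and Il27ra by 1.10 ± 0.37, and Lifr fell by 1.15 ± 0.31. The IL-11 receptor Il11ra1 was at -0.15 ± 0.13. The 3 kinases were not called, with Jak1 at 0.04, Jak2 at 0.12 and Tyk2 at -0.04.

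The pathway's inhibitors did not move together at 9 weeks. Socs1, a broad inhibitor of Janus kinases, rose by 2.14 ± 0.25 (SE), from a vehicle mean of 0.832 to 3.73 CPM, whereas Socs2 and Cish, best known as targets and inhibitors of STAT5 signalling, fell by 0.77 ± 0.15 and 0.57 ± 0.16. Socs2 and Cish were chosen after their values were seen. Of 23 target genes 9 were called higher and 0 lower. They included Lcn2 (4.85 ± 1.02 SE), an iron-sequestering antimicrobial protein, Lrg1 (3.89 ± 0.63), the metalloproteinase inhibitor Timp1 (2.02 ± 0.59), the acute-phase gene Saa3 (1.87 ± 0.53) and the IL-4 receptor chain Il4ra (1.59 ± 0.16). Cebpb (0.97), Pim1 (0.88) and Il1rn (0.82) rose less. All calls here are those of the edgeR test over all genes.

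At 15 weeks 5 of the 46 pathway genes were higher than in vehicle and 2 lower, against 4.29% and 7.02% of all genes. Lcn2 (3.45 ± 0.99 SE), Saa3 (1.70 ± 0.52), Socs1 (1.52 ± 0.25) and Il4ra (1.05 ± 0.16) were among those higher. Lifr fell by 2.10 ± 0.32, from a mean of 9.54 CPM ± 5.71 in vehicle to 2.16 CPM ± 0.886 (SD, n = 10), and Cish fell by 0.53 ± 0.16. The median over the list was 0.07, against -0.03 over all genes. From 9 to 15 weeks 3 were called lower and 2 higher, against 3.83% and 0.492% of all genes. Il10ra fell by 1.78, Lrg1 by 2.40 and Il4ra by 0.53, and Socs2 was among those that rose, by 0.55.

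**Figure D4:**
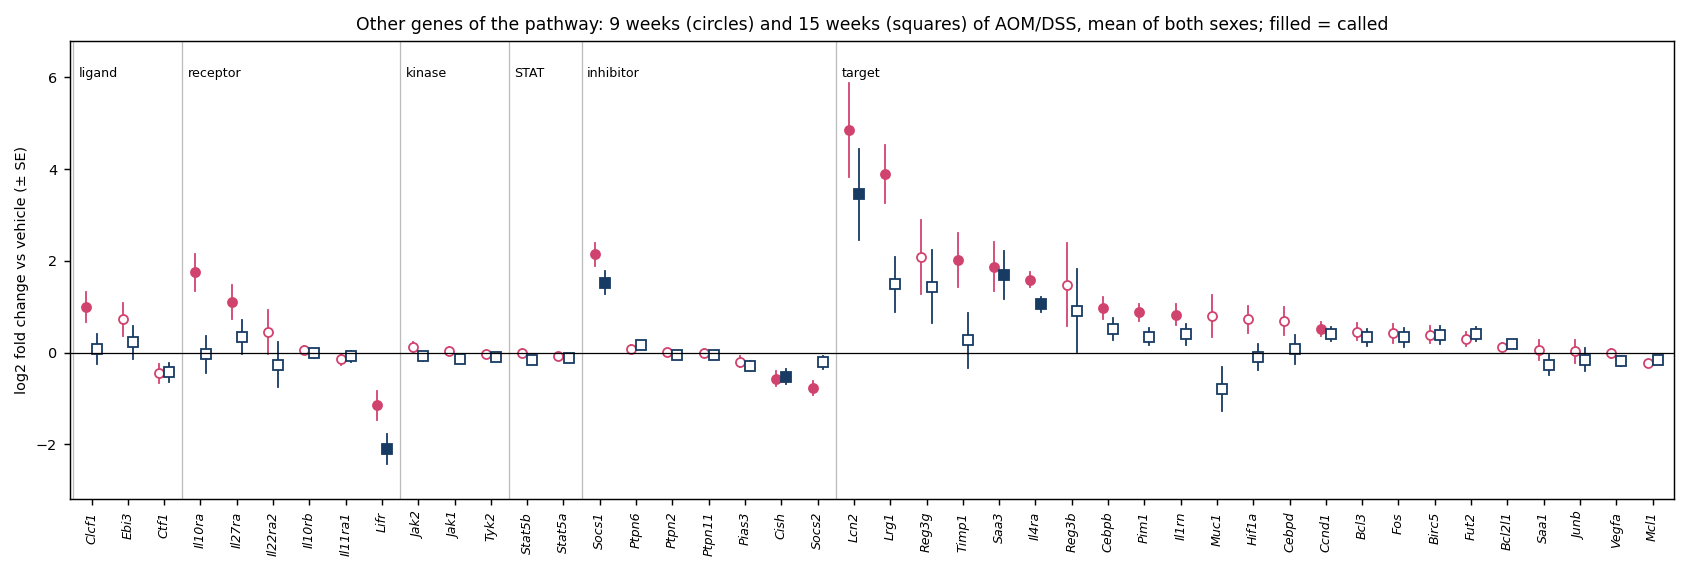
Log2 fold change against vehicle (y axis, ± SE, mean of both sexes) of 44 tested pathway genes (x axis, ordered by role) at 9 weeks (circles) and 15 weeks (squares), with filled symbols for those called. The kinases lie close to 0 at both times, Lifr is lower at both, and Lcn2 and Lrg1 have the highest circles.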

How the data were processed

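Stranded libraries of poly(A) RNA were made by the authors, who aligned reads to GRCm38 with STAR and deposited featureCounts gene counts, which were used as raw counts. The authors' StringTie tables gave TPM, used for levels between genes, and FPKM, used for 1 alternative, as deposited. The submitters' processing notes also name bcl2fastq 2.20.0.422 and Trim Galore. Other versions are not given in the sources used here. Rows of a gene repeated within a StringTie table were added.

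Counts were fitted with edgeR 4.0.16 in R 4.3.3 (quasi-likelihood F test, two-sided, TMM factors 0.832 to 1.10, filterByExpr, 16261 genes tested including all 10 studied here, 1 coefficient per group, common biological coefficient of variation 0.319). Changes in both sexes are the mean of the female and the male log2 fold change, and 15 comparisons were made. CPM are counts scaled to the library total over the genes tested, adjusted by its TMM factor. The floors and counting intervals of Il6 used the library total on all genes. The 95% intervals of a fold change are 1.96 SE. Each library was taken as 1 mouse, and its group came from the labels. The fit was tested on simulated data. DESeq2 1.42.0, other scalings, filters, thresholds, sample sets, a replicate block and leaving out each library were alternatives.

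The genes and lists were chosen with earlier results of these data known. All 10 genes were described in each main comparison. Pathway genes were named if called at 9 or 15 weeks, up to 14 by fold change, with Jak1, Jak2, Tyk2, Lifr, Il11ra1, Il22 and Il10 always named, and 3 genes most alike were named for each of the 10. The markers of the other cell types were fixed lists, described with no test of a list. Some genes of the pathway list are not reported here by name or plotted, though they are included in its counts.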

Additional observations from a re-analysis of the deposited data

Results flagged for a closer look

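In 7 of 60 sets of 5 libraries (10 genes in 6 groups), 1 library lay far from the other 4 by Dixon's ratio, whose 95% critical value for 5 samples is 0.710, and chance gives such a library in about 1 of 20 sets. Values are log2 CPM with a prior count of 2. Il6 was -3.13 in male vehicle replicate 1, which held the only Il6 count in vehicle. A lone count among libraries at 0 always passes this limit and a set at 0 throughout never can, so the chance rate does not apply to such sets. Osm was -1.54 in male vehicle replicate 3 (7 counts) and -3.62 in female 15-week replicate 2 (0 counts). Osmr was 0.21 in female 9-week replicate 5 (group median 3.82) and -2.15 in female 15-week replicate 1 (group median 1.41). Il6st was 4.94 in female 9-week replicate 5 (group median 5.68), and Il22ra1 was 5.06 in male 9-week replicate 4 (group median 5.76).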

How the results depend on the processing

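With both sexes together, Il6, Osm, Osmr, Lif and Socs3 at 9 weeks were called in all 30 fits that each left out 1 library, and the number of the 10 genes called ranged from 5 to 6. For the other comparisons this number ranged from 3 to 6 (9 weeks, females), 2 to 6 (9 weeks, males), 1 to 3 (15 weeks), 0 to 2 (15 weeks, males), 2 to 5 (15 against 9 weeks), 0 to 2 (the same in females) and 0 to 1 (males against females in vehicle). Counts of all genes called ranged from 327 to 1367 (9 weeks, females), 933 to 1710 (9 weeks, males), 1255 to 2212 (15 weeks), 3 to 45 (15 weeks, females), 807 to 2615 (15 weeks, males), 0 to 5 (15 weeks, males minus females), 160 to 1878 (15 against 9 weeks), 0 to 392 (the same in females), 0 to 6 (in males), 0 to 1 (males minus females), 9 to 1554 (males against females in vehicle), 8 to 9 (at 9 weeks) and 13 to 161 (at 15 weeks). Il6st at 9 weeks ranged from -0.10 to 0.054, the latter without male vehicle replicate 1. Il11 at 15 weeks, at -0.09, ranged from -0.24 to 0.054 and turned to 0.011 without female vehicle replicate 3, 0.0062 without female vehicle replicate 4, 0.033 without female 15-week replicate 2, 0.0015 without female 15-week replicate 3 and 0.054 without male 15-week replicate 4.

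Leaving out both libraries that stood apart, a choice made after seeing the data, gave 1647 genes called at 9 weeks in females, 50 and 952 at 15 weeks in females and males, 0 for males minus females, 2178 for 15 against 9 weeks with 884 in females and 27 in males, and 11 and 235 for males against females in vehicle and at 15 weeks. Of the 10 genes it called 1 at 15 weeks and 4 for 15 against 9 weeks in females, and Il6st at 9 weeks was 0.11. DESeq2 called 1004 genes at 9 weeks in females, 112 at 15 weeks in females, 3 and 7 for males minus females at 9 and 15 weeks, 1136 for 15 against 9 weeks with 52 in females, 145 in males and 1 for their difference, and 743 and 297 for males against females in vehicle and at 15 weeks. Of the 10 genes it called 2 at 15 weeks in males, 2 for 15 against 9 weeks in males and 1 for males against females in vehicle. Fits of the compared groups alone called 380 genes at 9 weeks in females, 1 and 226 at 15 weeks in females and males, 0 for males minus females, 7 for 15 against 9 weeks in males and 7 for males against females in vehicle. Of the 10 genes they called 2 at 9 weeks in females, where Il6 (adjusted p = 0.0887) and Osm (0.0667) were lost, 1 at 15 weeks and 0 at 15 weeks in males.

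Without the filter on low counts 404 genes were called for 15 against 9 weeks and 0 for males minus females at 15 weeks. By the adjusted p alone 2832 genes were called at 15 weeks. Requiring a group mean of at least 1 FPKM, which removes Il6 and Osm and, at 15 weeks, Il6ra by construction, left 2 and 3 of the 10 genes called at 9 weeks in females and males, 1 at 15 weeks and 2 for 15 against 9 weeks, where 394 genes were called in all, and 0 genes for males minus females at 15 weeks. The other size factors changed no call of the 10 genes. Apart from these constructions the cause of each change was not tested.

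Replicate numbers are shared by the groups but did not pair the libraries: the correlation of deviations in 75 pairs with the same number had a median of -0.0262 (lowest -0.581, highest 0.467). With a replicate block 9 genes were called at 15 weeks in females, 0 for males minus females and 15 for males against females in vehicle. Of the 10 genes 1 was called at 15 weeks and 0 at 15 weeks in males (Socs3, 1.10, adjusted p = 0.0523), and Stat3 at 9 weeks in males was at 0.43 (0.0597). The low counts of Il6, Il11 and Osm limit the precision of their fold changes.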
